A study of Homo sapiens with 22 samples.

Results

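The numbered ZNF genes are human genes named ZNF followed by a number only, most of which encode proteins with C2H2 zinc fingers, small zinc-binding folds that read DNA. Regions of asymmetric dimethylation of arginine 2 on histone H3 (H3R2me2a) were taken as members where the nearest transcript named in the deposited promoter or enhancer list belonged to such a gene. There were 205 such regions, naming 179 genes, of 8819 regions naming 6697 genes. The rule used names only and no measured value.

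The regions came from chromatin immunoprecipitation and sequencing (ChIP-seq) in NT2/D1, a human embryonal carcinoma line that is pluripotent and differentiates in all-trans retinoic acid (ATRA). Of 22 samples with 5 antibodies, 2 were used here, both H3R2me2a libraries of CRISPR/Cas9 control cells, one grown without ATRA and one with 1 µM ATRA for 3 days, immunoprecipitated with a rat monoclonal antibody that the laboratory made itself. The other 20 samples, which include cells deleted for PRMT6, the enzyme that places the mark, were not analysed here. There was 1 library per condition, so no difference has a replicate check and no p-value is given. Intervals are exact Clopper-Pearson 95% intervals and cover counting error only.

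The authors divided the regions into clusters I, II and III and into a promoter and an enhancer list. Clusters I and II were deposited under the library without ATRA. Cluster III and both class lists were deposited under the library with ATRA. No source used here gives the criteria for the clusters and classes or the sequencing depth. Of 15 genes that mark pluripotent cells, 7 were named by a region, among them POU5F1, SOX2 and SALL4. The other 8, among them NANOG and DPPA4, were not, and of all protein-coding genes 20.9% were named. A name is only that of the nearest transcript. The SOX2 region, in the enhancer list, lay 41642 bp from the start, whereas SALL4 had a promoter-list region at 46 bp. The files hold no expression values, so the cell type could not be checked further.

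Many zinc finger proteins carry a KRAB box, a short domain near the start of the protein that recruits the co-repressor TRIM28 and, through it, the H3K9 methyltransferase SETDB1. Such proteins are known for silencing transposable elements in pluripotent cells, and their genes lie in clusters on chromosome 19 that grew by duplication. ZNF143 and its close paralog ZNF76 are zinc finger activators that bind promoters, and the letters ACTACA are the core of the site ZNF143 recognises. H3R2me2a is known to hinder trimethylation of the neighbouring lysine 4 of histone H3.

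Sequences around the ACTACA core are shown for 8 genes. They had the highest tag counts in cluster II promoter-class regions among ZNF genes whose window holds the core. ZNF143 (553 tags), ZNF343 (303), ZNF384 (211), ZNF565 (159) and ZNF335 (149) had counts like theirs or higher and no core. ZNF76 (502) was not matched. This core was the searched motif that differed most between promoters with and without a cluster II region. The sequences are RefSeq reference windows of 30 bases on build GRCh38.p14, matched to members by gene symbol only. They are turned so that the core reads ACTACA, with the core in capitals.
ZNF140: caagaaACTACAattcccagaaaccaatgc
ZNF225: gtctggACTACActtcccagaattccctgg
ZNF133: gccaggACTACActaccccgaatcctcggc
ZNF169: cacggaACTACActacccagactgccacgg
ZNF850: ctctggACTACAtttcccagaggatcccgc
ZNF749: gtgagaACTACAttacccagaagacactgc
ZNF112: tcccaaACTACAtttcccagaattcctaga
ZNF337: cccgggACTACActacccagaatcctcagc

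The ZNF140 window lies at chr12:133080799-133080828 on the minus strand and the ZNF225 window at chr19:44113309-44113338 on the minus strand. The ZNF850 window lies at chr19:36772871-36772900 on the minus strand and the ZNF749 window at chr19:57435222-57435251 on the plus strand. These windows sit close to the transcript start, with the core at -106 bp in ZNF140, -72 bp in ZNF225, -87 bp in ZNF850 and -97 bp in ZNF749.

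Whole promoter windows, from 250 bases before to 50 bases after the RefSeq start, are shown for 3 genes that differ in this respect. ZNF143 had the highest tag count of all numbered ZNF regions and no ACTACA core, ZNF225 had 2 cores, and ZNF606 had the most MACS tags among promoter-class ZNF regions of cluster III and 1 core. Capitals mark the core on either strand (ACTACA or TGTAGT) and the ETS motif CCGGAAG, the letters that ETS family activators bind.
ZNF143: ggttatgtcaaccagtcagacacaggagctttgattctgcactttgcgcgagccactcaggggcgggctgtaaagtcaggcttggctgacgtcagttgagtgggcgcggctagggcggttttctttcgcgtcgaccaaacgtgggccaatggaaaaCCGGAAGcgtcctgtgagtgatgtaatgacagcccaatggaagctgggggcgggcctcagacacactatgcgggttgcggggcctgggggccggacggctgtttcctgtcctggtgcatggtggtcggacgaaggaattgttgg
ZNF225: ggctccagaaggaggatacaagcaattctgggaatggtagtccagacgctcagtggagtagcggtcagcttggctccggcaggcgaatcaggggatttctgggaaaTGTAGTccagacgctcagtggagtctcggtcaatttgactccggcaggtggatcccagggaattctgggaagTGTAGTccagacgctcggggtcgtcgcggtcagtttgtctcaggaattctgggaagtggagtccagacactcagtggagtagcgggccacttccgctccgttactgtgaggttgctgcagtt
ZNF606: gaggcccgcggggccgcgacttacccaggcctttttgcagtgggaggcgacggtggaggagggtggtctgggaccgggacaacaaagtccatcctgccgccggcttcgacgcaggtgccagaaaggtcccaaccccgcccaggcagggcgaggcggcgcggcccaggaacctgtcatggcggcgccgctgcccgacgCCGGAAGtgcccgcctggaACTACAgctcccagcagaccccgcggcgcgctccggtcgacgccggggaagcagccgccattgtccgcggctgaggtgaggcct

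On GRCh38.p14 these windows are chr11:9460762-9461061 on the plus strand for ZNF143, chr19:44113149-44113448 on the plus strand for ZNF225 and chr19:58002771-58003070 on the minus strand for ZNF606. The deposited regions are on hg19 (GRCh37), so windows and regions were never joined by position.

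Numbered ZNF regions lay mostly at promoters. The promoter list held 175 of the 205 (85.4%, interval 79.8 to 89.9) and 48% of all 8819 regions. By the authors' position classes, 182 (88.8%) were at a transcript start, 9 were intergenic, 7 intronic, 6 upstream and 1 exonic. Starts made up 53.3% of all regions.

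They were also placed more often in cluster II. Cluster II held 116 of 205 (56.6%, 49.5 to 63.5), against 23.8% of all regions, and cluster III held 89 (43.4%), against 73.9% of all. None was in cluster I, which held 2.29% of all regions; 0 of 205 allows a share of up to 1.78%. Within a class the background lay inside the interval, at 0.590% of all promoter-class regions against 0 of 175 (up to 2.09%) and 3.86% of all enhancer-class regions against 0 of 30 (up to 11.6%). The gap was also there within 1 class. In the promoter list, 109 of 175 ZNF regions (62.3%, 54.7 to 69.5) were in cluster II, against 35.5% of all promoter-class regions and 34.3% of those of other genes. In the enhancer list it was 7 of 30 (23.3%, 9.93 to 42.3) against 13% of all, and that interval includes the background.

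Chromosome 19 moved with this share. It held 92 of the 205 ZNF regions (44.9%) and 4.89% of all regions. Among promoter-class regions on chromosome 19, 63 of 84 ZNF regions (75%, 64.4 to 83.8) were in cluster II, and 115 of 213 of other genes (54.0%, 47.0 to 60.8). On the other chromosomes the ZNF share was 46 of 91 (50.5%, 39.9 to 61.2), and that of other genes 1279 of 3848 (33.2%, 31.7 to 34.8). ZNF regions therefore exceeded other genes within both chromosome sets, and both gene groups were higher on chromosome 19.

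**Figure D1:**
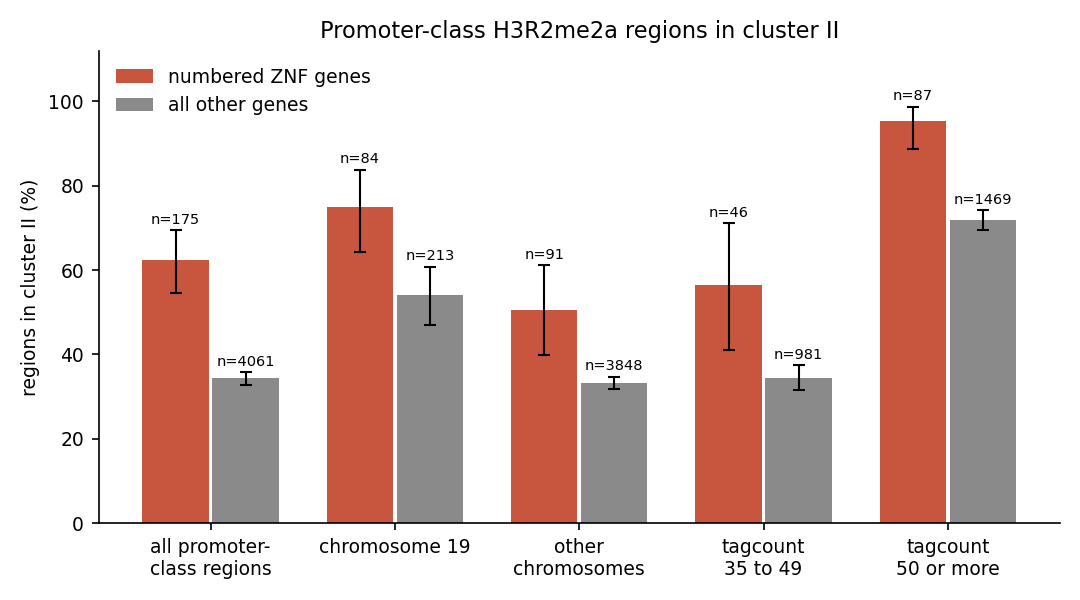
Share of promoter-class H3R2me2a regions in cluster II (percent, vertical axis) for numbered ZNF genes and other genes, by chromosome set and tagcount range; bars are shares and error bars exact 95% intervals. On chromosome 19 the ZNF share was 75% and that of other genes 54.0%, and elsewhere 50.5% and 33.2%.

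The tagcount column gives the tags in each promoter-list or enhancer-list region. No cluster II region had a tagcount below 35, so the comparison was repeated within ranges of tagcount. The upper range has no upper limit, so the counts inside it were not matched between the gene groups. Between 35 and 49 tags, 26 of 46 promoter-class ZNF regions (56.5%, 41.1 to 71.1) were in cluster II, against 338 of 981 of other genes (34.5%). At 50 tags or more it was 83 of 87 (95.4%, 88.6 to 98.7) against 1056 of 1469 (71.9%). The 42 ZNF regions below 35 tags were all in cluster III.

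Promoter-class ZNF regions lay near the start, 167 of 175 (95.4%) within 1 kb, against 92.1% of all. The distance is 1 value per region, so a region with a negative distance can still span the start. A negative value marks the upstream side, and 138 of 175 (78.9%) were negative, against 59.0% of those of other genes. The difference was widest in cluster III, where 52 of 66 ZNF regions (78.8%, 67.0 to 87.9) and 54.1% of those of other genes had a negative distance.

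In cluster II, promoter-class ZNF regions had tagcounts from 35 to 553 with a median of 70, and all promoter-class cluster II regions a median of 74. The upper quartile was 95 tags for ZNF regions and 126 for all, so the ZNF set held fewer regions with very high counts. Their median width was 500 bp, against 537 bp for all.

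The pair at the top were the activator genes. ZNF143 had 553 tags at chr11:9481874-9482888 (hg19), with a distance of -152 bp to its start. ZNF76, its paralog, had 502 tags at chr6:35226923-35227999, with a distance of 10 bp. Both lay well above the next member, ZNF343, with 303 tags.

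ZNF140 had 230 tags at chr12:133656588-133657602, ZNF225 had 218 at chr19:44617056-44617779 and ZNF384 had 211 at chr12:6797830-6799363, the widest promoter-class cluster II region of the family at 1534 bp. ZNF133 followed with 197 tags, ZNF169 with 183, ZNF850 with 177 and ZNF749 with 164. Of these 10 genes, 3 were on chromosome 19, and 6 had the ACTACA core in their RefSeq window. ZNF143, ZNF343 and ZNF384 had none, which says only that these letters are not in those windows, and ZNF76 was not matched.

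**Figure D2:**
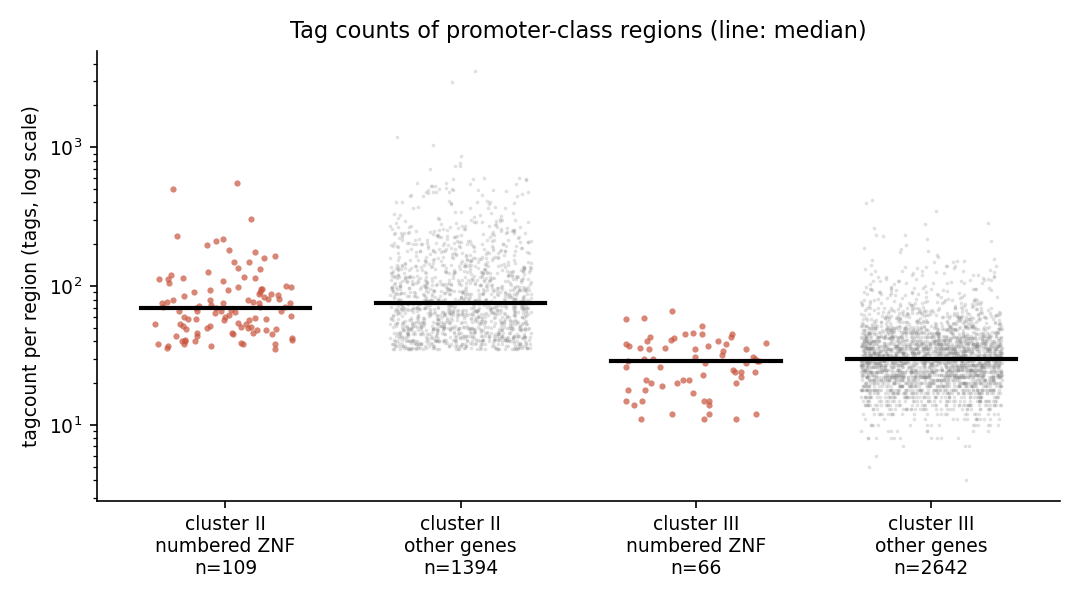
Tagcount per promoter-class region (tags, log scale) for numbered ZNF genes and other genes in clusters II and III; points are regions and lines medians. The ZNF median was 70 in cluster II and 29 in cluster III, and ZNF143 and ZNF76 stood at 553 and 502.

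Cluster III regions carry a further column, MACS tags. Promoter-class ZNF regions there had 29 to 109 MACS tags (median 48, all promoter-class cluster III regions 52) and tagcounts of 11 to 66 (median 29, all 30). The ratio of tagcount to MACS tags ran from 0.268 to 1.10 with a median of 0.528, against 0.565 for all. It was under 0.5 in 26 of 66 ZNF regions (39.4%, 27.6 to 52.2) and in 32.5% of all, so the interval includes the background. The scale between the columns is unknown, and no source used here names the library of tagcount, so a ratio is read only against other regions of the cluster. In cluster I, a list that belongs to the library without ATRA, tagcount exceeded the MACS tags by 0 to 8 (median 3) over its 202 regions.

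Among these promoter-class regions ZNF606 had the most MACS tags, 109, beside a tagcount of 45, at chr19:58513747-58514582. ZNF687 followed with 98 MACS tags and a tagcount of 66, then ZNF461 with 96 and 45. ZNF547 (92), ZNF276 (89), ZNF549 (88), ZNF583 (85), ZNF609 (79), ZNF451 (74) and ZNF821 (74) completed the 10 highest in MACS tags.

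The lowest ratios were at ZNF503 (0.268), ZNF451 (0.284), a pair of regions at ZNF703 (0.300 and 0.304) and ZNF789 (0.306). ZNF503 and ZNF703 are related co-repressors of the NET family that act in development. The highest were at ZNF43 (1.10), the 1 ZNF promoter region with a tagcount above its MACS tags, then ZNF561 (0.882), ZNF646 (0.843), ZNF580 (0.829) and ZNF212 (0.809).

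**Figure D3:**
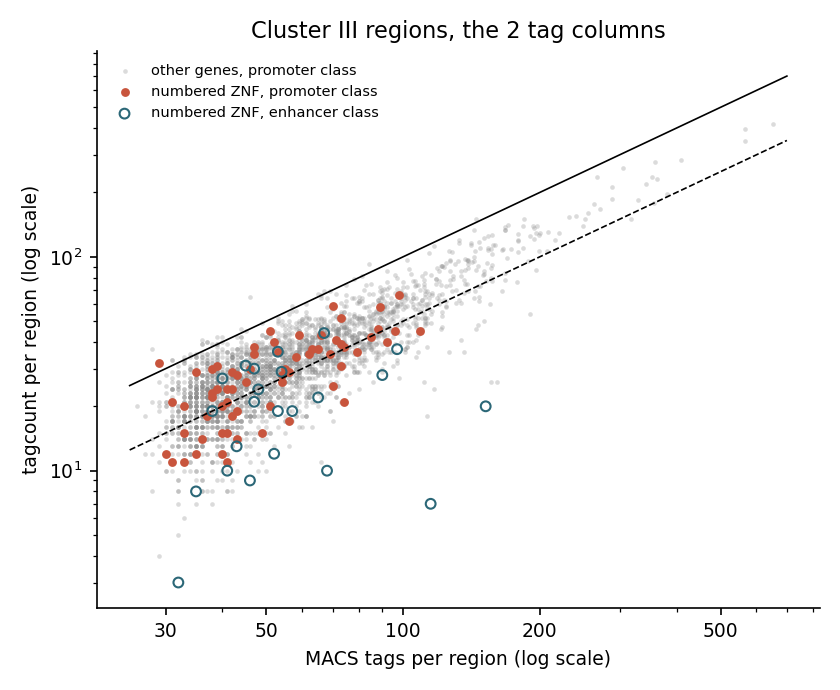
Tagcount against MACS tags per cluster III region, both on log scales; filled points are promoter-class regions and open circles enhancer-class ZNF regions, the solid line marks equal values and the dashed line a ratio of 0.5. The ZNF promoter median ratio was 0.528, and the intronic ZNF444 region lay lowest at 0.0609.

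Of the 30 enhancer-class regions, ZNF444 had the highest tagcount, 271, in a cluster II region 75 bp from its start. Among those next in tagcount, ZNF835 (91), ZNF25 (41), ZNF782 (40), ZNF565 (38) and ZNF233 (36) were also within 1 kb of a start although listed as enhancers. ZNF683 (82 tags), ZNF710 (65), ZNF362 (44) and ZNF697 (37) were farther off, with signed distances of -11726, -5885, -12103 and 8502 bp. With fewer tags, ZNF135, ZNF395, ZNF484, ZNF674 and ZNF775 each had an enhancer-class region within 1 kb too. The share within 1 kb over all enhancer-class regions was not computed. The name of the list is thus not a distance class for these members. In cluster III the enhancer-class ZNF ratio had a median of 0.338, against 0.377 for all enhancer-class cluster III regions.

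Most genes, 160 of 179, had 1 region, 14 had 2, 4 had 3 and ZNF703 had 5. All 5 ZNF703 regions were in cluster III, with tagcounts of 12, 17, 9, 20 and 3 beside 40, 56, 46, 152 and 32 MACS tags in order of position. No ZNF703 tagcount was above the ZNF median of its class in cluster III, 29 in the promoter and 20 in the enhancer class. Its region with 152 MACS tags had the most of any ZNF region in cluster III, beside a tagcount of 20.

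ZNF423, a transcription factor of neural and fat cell development with many fingers, had 3 enhancer-class regions in cluster III with tagcounts of 21, 24 and 13 and MACS tags of 47, 48 and 43. ZNF608 had 3 in the same class and cluster, with ratios of 0.338, 0.311 and 0.231. ZNF367 had 3 promoter-class regions in cluster III with tagcounts of 18, 20 and 14. ZNF790 differed from these, with 3 promoter-class regions all in cluster II and tagcounts of 126, 37 and 79. The regions with 37 and 79 tags were paired with the same 1026 bp interval in the cluster II list.

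Only 4 genes had regions in both cluster II and cluster III. ZNF143 had its 553-tag promoter region in cluster II and an intergenic enhancer-class region in cluster III with 27 tags and 40 MACS tags. ZNF444 had 271 tags at its start in cluster II, and 7 tags beside 115 MACS tags in its intron in cluster III. ZNF451 had 76 tags in cluster II and 21 beside 74 MACS tags in cluster III, and ZNF710 had 65 in cluster II and 21 beside 41 in cluster III. In each the cluster II region had the higher tagcount. The cluster III regions of these genes were all below 35 tags, the lowest in cluster II, so no other order was possible. Regions in both classes were found for 7 genes, ZNF143, ZNF565, ZNF697, ZNF703, ZNF710, ZNF775 and ZNF782.

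Many members were neighbours. With gaps of up to 100 kb joined, 20 runs of at least 2 genes held 102 regions, and 9 runs on chromosome 19 held 72 of them. The longest, chr19:57874406-58790488, held 27 regions of 27 genes, 20 in cluster II and 7 in cluster III, with tagcounts of 11 to 164. The run at chr19:44439244-45004777, from ZNF45 to ZNF180, held 17 regions of 16 genes, 16 in cluster II and 1, at ZNF233, in cluster III. Its tagcounts ran from 35 to 218 with a median of 77, and no promoter-class region of another gene lay inside it.

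Of the 20 runs, 11 held both clusters, the 2 longest among them. Of the other 18, 9 held both, such as chr19:56904380-57183431 (ZNF582 to ZNF835) with 3 regions in each, 5 were all in cluster II and 4 all in cluster III. All 6 regions at chr19:37263508-37464202 (ZNF850, ZNF790, ZNF829 and ZNF568) and all 4 at chr16:30538096-30621976 (ZNF768, ZNF764, ZNF785 and ZNF689) were in cluster II. The 6 include the 2 ZNF790 regions that were paired with the same interval. All 3 at chr19:52489889-52552343 (ZNF350, ZNF614 and ZNF432) were in cluster III. Of all ZNF regions 56.6% were in cluster II and 43.4% in cluster III. No background was computed for runs or pairs, so their counts are not read as a likeness of neighbours. Of the 10 closest pairs of genes, 6 shared a cluster. The closest, ZNF668 and ZNF646 on chromosome 16, were 356 bp apart and in different clusters, and the next, ZNF569 and ZNF570 on chromosome 19, were 1335 bp apart. Duplicated genes have similar sequences, and no source used here says how reads that match several copies were placed.

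Set against the annotation, numbered ZNF genes were named by a region more often than other genes. Of 476 such protein-coding genes in GENCODE 44, 176 (37.0%, 32.6 to 41.5) were named, against 20.9% of all protein-coding genes. On chromosome 19 it was 86 of 240 (35.8%) and elsewhere 90 of 236 (38.1%), while 233 of 1236 other chromosome 19 genes (18.9%) were named. ZNF271, ZNF767 and ZNF806 were named by a region but are not protein-coding in that release. Genes were matched by symbol, so a gene renamed by that release counts as not named. Of 6697 names in the series, 4188 matched a protein-coding gene, and of 179 ZNF names 176 did. How far renaming lowers the share of all protein-coding genes was not tested.

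Genes were split by the KRAB box, read as a residue pattern in their translated GENCODE proteins. With the first pattern, 59 of 76 promoter-class regions of KRAB genes (77.6%, 66.6 to 86.4) and 49 of 96 of the rest (51.0%, 40.6 to 61.4) were in cluster II. That pattern is strict and missed known KRAB genes such as ZNF225 and ZNF850. A pattern that accepts either part of the KRAB A box, chosen after the first result was seen, added 62 genes to the 244 of the first and lost none. It gave 79 of 106 (74.5%, 65.1 to 82.5) against 29 of 66 (43.9%, 31.7 to 56.7). A gene that matches neither pattern can still be a KRAB gene, so the rest may be mixed with either. The planned looser pattern gave 60 of 79 (75.9%) against 48 of 93 (51.6%), so the KRAB share was the higher with all 3 patterns.

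Away from chromosome 19, the first pattern gave 20 of 27 (74.1%, 53.7 to 88.9) against 25 of 61 (41.0%, 28.6 to 54.3), and the wider pattern 22 of 33 (66.7%, 48.2 to 82.0) against 23 of 55 (41.8%, 28.7 to 55.9). These intervals overlap with either pattern. On chromosome 19 the first pattern gave 39 of 49 (79.6%, 65.7 to 89.8) against 24 of 35 (68.6%, 50.7 to 83.1), and the wider pattern 57 of 73 (78.1%) against 6 of 11 (54.5%, 23.4 to 83.3). KRAB genes were not named by a region more often than the rest, at 31.6% against 42.7% with the first pattern and 35.6% against 39.4% with the wider one. The 62 genes added by the wider pattern were named at 51.6%. KRAB proteins of the first pattern had a median of 12 C2H2 fingers and the rest 9.

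RefSeq windows were matched for 146 of the 163 genes with a promoter-class region, and for 405 numbered ZNF genes among 15843 protein-coding genes in all. The ACTACA core (or TGTAGT, either strand) was in 8.51% of all windows. It was in 53 of 94 ZNF genes with a cluster II promoter region (56.4%, 45.8 to 66.6), in 8 of 52 with a cluster III promoter region (15.4%, 6.88 to 28.1) and in 15 of 247 with no region (6.07%). Other genes followed the same order, with 337 of 911 in cluster II (37.0%, 33.8 to 40.2), 7.70% in cluster III and 6.27% with no region. A match is a description, not a site or a cause.

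The higher share in ZNF genes was seen on chromosome 19. There 39 of 52 cluster II ZNF windows (75%) held the core, against 22 of 75 of other cluster II genes (29.3%). Duplicated neighbours share promoter sequence by descent, so these windows are not independent. The shares and intervals for the core count each window as if it were. On the other chromosomes 14 of 42 ZNF windows (33.3%, 19.6 to 49.5) and 315 of 836 of other genes (37.7%) held it, so the ZNF share was not higher there. With the wider KRAB pattern, 47 of 68 KRAB cluster II windows (69.1%, 56.7 to 79.8) and 6 of 26 of the rest (23.1%, 8.97 to 43.6) held the core; with the first pattern these were 67.3% and 42.9%. Of KRAB genes with no region, 4.88% by the wider pattern and 4.96% by the first held it.

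A longer form of the site, the core followed by any 2 letters and then TCC, contains the core by construction. It was in 2.93% of all windows, in 32 of 94 cluster II ZNF windows (34.0%) and in 3.24% of ZNF windows with no region. Read the other way, of the 79 ZNF windows with the core, 53 (67.1%) belonged to genes with a cluster II promoter region. Another 15 belonged to genes with no region of any class. Among ZNF genes with a promoter-class region, 53 of 61 with the core (86.9%) and 41 of 85 without it (48.2%) were in cluster II. The tagcount did not follow the core in cluster II ZNF regions, with a median of 71 with it and 70.5 without it, whereas other genes had 97 and 66.

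**Figure D4:**
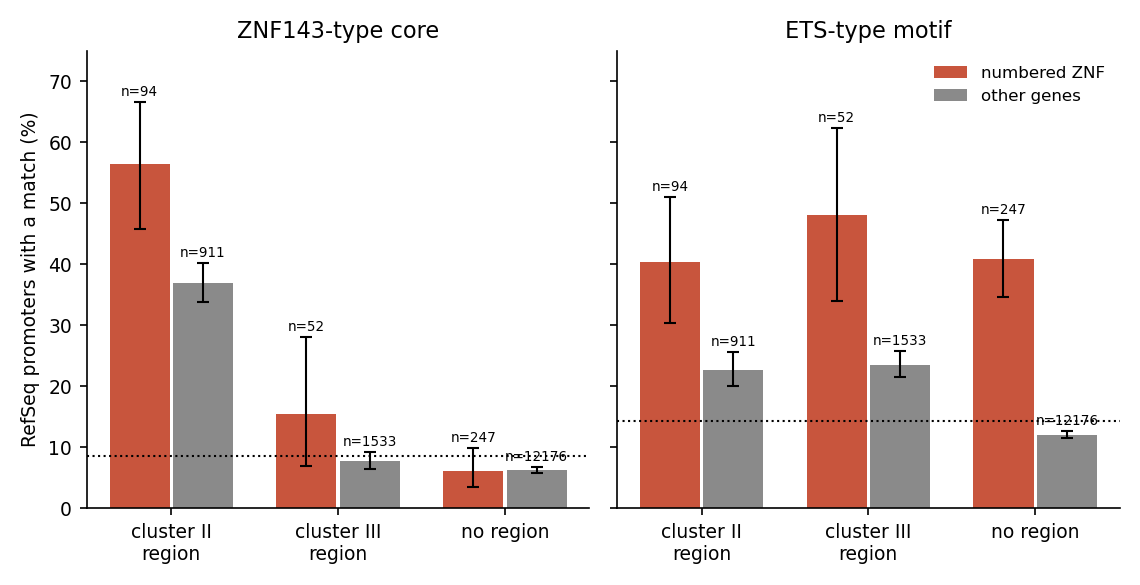
Share of RefSeq promoter windows with a match on either strand (percent) for numbered ZNF genes and other genes. Genes are grouped by a promoter-class region in cluster II, one in cluster III, or no region of any class. ZNF genes with only enhancer-class regions are in none of these groups. Error bars are exact 95% intervals and the dotted line is the share of all windows. The ZNF143 core was in 56.4% of ZNF windows in cluster II and 6.07% with no region, whereas the ETS motif was in 40.4% and 40.9%.

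The cores lay at like positions. In cluster II ZNF windows there were 65 matches in 53 genes, with a median of -88 bp from the start, and 56 of them (86.2%) fell within the 150 bp upstream. The 427 matches of other cluster II genes had a median of -90 bp and 72.8% fell there. Of the ZNF matches, 26 were on the strand of the gene and 39 on the other, against 254 and 173 in other genes. The core occurred more than once in 12 of the 53 genes, ZNF225 among them.

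**Figure D5:**
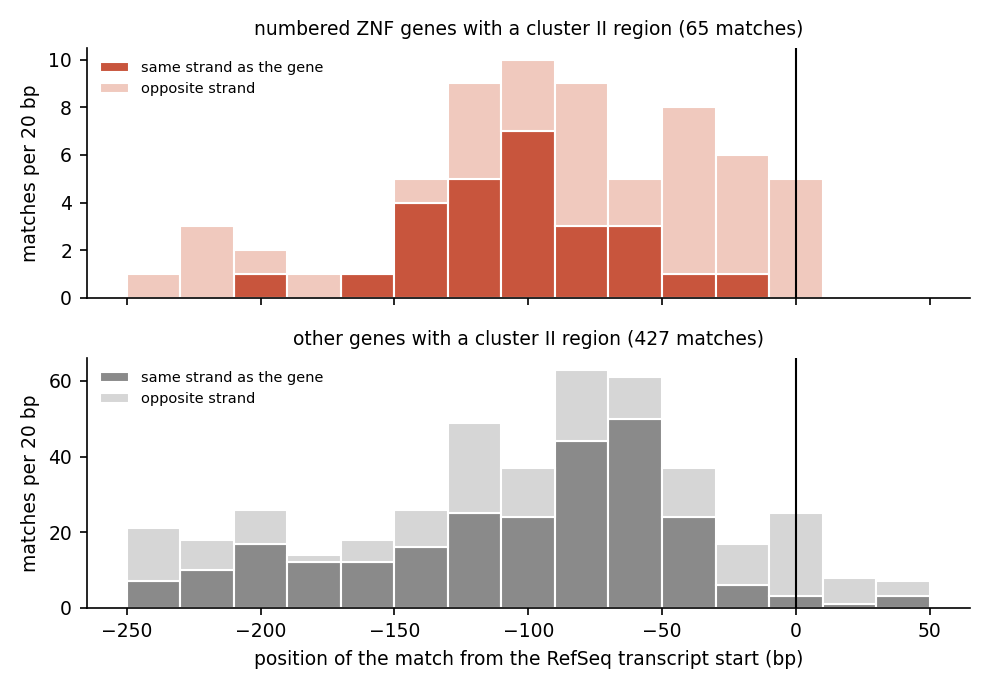
Position of each ACTACA match from the RefSeq transcript start (bp) in windows of genes with a cluster II promoter region, in 20 bp bins, coloured by strand; numbered ZNF genes and other genes are shown apart. The median was -88 bp in ZNF genes and -90 bp in other genes.

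The ETS motif CCGGAAG, like the motifs after it searched on both strands, was common in ZNF windows whatever their region. It was in 40.7% of all 405 against 14.2% of all windows, at 40.4% in cluster II, 48.1% in cluster III and 40.9% with no region. The NF-Y motif CCAAT was in 48.6% of ZNF windows against 36.4% of all, and the TATA motif TATAAA in 3.21% against 9.63%. The share of CCGGAAG thus set ZNF windows apart from others, but not those with a region from those without. Longer words that contain it, chosen from the values, did differ. CCGGAAGC (or GCTTCCGG) was in 9.57% of cluster II ZNF windows, 15.4% in cluster III and 24.7% with no region. CCCGGAAG (or CTTCCGGG) was in 7.45%, 11.5% and 25.5%. SP/KLF (GGGCGG) was in 64.9% of ZNF windows against 58.5% of all, at 46 of 94 with a cluster II region (48.9%, 38.5 to 59.5) and 176 of 247 with none (71.3%, 65.2 to 76.8). NRF1 (GCATGCG) was in 6.17% of ZNF windows against 5.14% of all, and YY1 (AAGATGG) in 6.91% against 6.4%. CRE (TGACGTC) was in 5.93% against 4.58%, E2F (TTCCCGC) in 10.9% against 8.6%, the E-box (CACGTG) in 4.94% against 8.88% and the CGCG element (CTCGCGA) in 1.98% against 3.26%.

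Of 27 genes for partners of KRAB proteins and their chromatin pathway, 10 were named by 13 regions, 3 of them in cluster II and 10 in cluster III. Beside these stand 20.9% of all protein-coding genes named by a region and 23.8% of all regions in cluster II. The cluster II regions included those at CBX1 (41 tags), which encodes a heterochromatin protein, and ZNF274 (57), a KRAB protein that is itself a member. SETDB1 had a cluster III promoter region with 51 tags beside 66 MACS tags. TRIM28 was not named by a region.

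Related families were few. In the promoter list, cluster II held 3 of 9 ZBTB regions, 3 of 6 ZSCAN, 2 of 3 ZKSCAN, 5 of 8 ZFP and 8 of 16 of genes whose names start with ZNF but hold more than a number. The share of all promoter-class regions was 35.5%. The last family is at 50% (24.7 to 75.3), an interval that includes both that share and the 62.3% of the numbered ZNF genes.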

How the data were processed

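Both tag columns (MACS tags and tagcount) are unscaled whole-number counts as the authors deposited them, per the file headers. bcl2fastq, Bowtie2, MACS 1.4 and deepTools on hg19 (GRCh37) are named with no role or order, per the submitters' processing notes. The start window was 1250 bp and the upstream window 5000 bp, per the file headers. No source used here gives the depth. Regions were joined to clusters on chromosome, start and stop with Python 3.11.15, pandas 2.3.3 and SciPy 1.17.1. Shares were described beside all features, and the scripts were tested on simulated data. The members and lists were chosen with earlier results of these data known. Named genes were the highest in tagcount or MACS tags, the extreme ratios, genes with 3 or more regions or both clusters, the closest pairs and genes in both classes.

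KRAB boxes and fingers were planned from RefSeq proteins, which were not at hand, and were read from translated GENCODE 44 coding transcripts instead. The first KRAB pattern was kept as the main one although it missed known KRAB genes. A planned looser pattern and a wider one, added after both earlier results were seen, are given beside it. The first finger pattern counted too few fingers, 1 of 7 in ZNF143, and was corrected after its values were seen; both patterns gave medians of 12 and 9. ACTACA was among the motifs listed at the outset, and the longer form and the subsets were added later. Promoter windows and their coordinates are from RefSeq on GRCh38.p14. The values of 1 gene of the partner list are not reported here.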

Additional observations from a re-analysis of the deposited data

How the results depend on the processing

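Of 40 alternatives over 7 results, 27 stayed within the interval of the reported value and 13 moved outside it. With tagcount at or above the median of its list, the cluster II share of ZNF regions went from 56.6% to 82.3%, that of promoter-class ZNF regions from 62.3% to 87.7% (all promoter-class regions 64.3%), and the cluster III median ratio from 0.528 to 0.652. Without chromosome 19 the 2 cluster II shares were 44.2% and 50.5% (all promoter-class regions 33.6%), and the core share fell from 56.4% to 33.3%. At tagcounts of at least 35, the lowest in cluster II, the promoter-class share was 82.0%, against 58.2% of all promoter-class regions. That cut removes no cluster II region, so it can only raise the share, whatever the genes. For both lists together, no background share was computed at these settings. With width at or above its median, the cluster II median tagcount was 109 instead of 70. The promoter-list share was 93.8% within 1 kb and 89.9% with 1 region per gene, instead of 85.4%. The core share was 34.0% with the longer pattern, 67.3% in KRAB genes by the first pattern and 69.1% by the wider one. The KRAB share in cluster II was 77.6%, 75.9% and 74.5% with the first, planned looser and added wider patterns. The alternatives for the core, the lowest tagcount, the runs and the wider KRAB pattern were chosen after seeing the data. No paired analysis was possible because there was 1 library per condition and no test. Unknown depth limits all tag comparisons to the same column.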

Other observations

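Numbered ZNF genes without any region had other letters in their RefSeq windows. Short words were ranked by their difference in share, so the following were chosen from the values. CCAATCAG (or CTGATTGG), which contains the NF-Y motif, was in 73 of 247 windows of ZNF genes with no region (29.6%), in 6.38% of cluster II ZNF windows and in 5.18% of all windows. GTCACTCA (or TGAGTGAC) was in 21.1% of ZNF windows with no region and in 1.06% of those in cluster II. The longer CTGAGTGACAG was in 36 ZNF windows with no region, 0 in cluster II or III, and 49 of all 15843 windows. Duplicated genes share promoter sequence by descent, so these windows are not independent. In the other direction, ACTACATTTCC was in 19 cluster II ZNF windows (20.2%), in 1.21% of ZNF windows with no region and in 5.38% of cluster II windows of other genes.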
